A study of Mus musculus with 22 samples.

Results

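Genes that mark microglia in the resting brain, 9 in all, were followed through the transcriptomes of sorted hippocampal nuclei of mice: P2ry12, P2ry13, Gpr34, Cx3cr1, Csf1r, Siglech, Selplg, Tmem119 and Sall1. They were chosen by symbol, as the rows of the count table whose Ensembl identifier carries 1 of these names, and they are 9 of the 53274 genes with a symbol. All 9 were among the 40714 genes with enough counts to be tested. The data came from a mouse model of temporal lobe epilepsy in which the hippocampus opposite to the injection was studied.

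Adult male C57/BL6N mice, 8 weeks old on arrival and kept for a further 4 weeks, received 70 nl of 20 mM kainate above the right hippocampus, or the same injection of saline (sham). Left hippocampi were taken 24 h later from 8 mice per treatment and combined into 3 pools per treatment, so that each replicate is a pool and not a single mouse. Nuclei of each pool were sorted by an antibody to NeuN, a protein of most mature neurons, into NeuN+ nuclei (called neurons here) and NeuN- nuclei (called glia here, a mixture of oligodendrocytes, astrocytes, microglia, oligodendrocyte precursors and some vascular cells). mRNA was sequenced in 11 libraries: 3 of kainate neurons, 3 of sham neurons, 3 of kainate glia and 2 of sham glia, which are sham replicates 1 and 3.

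Libraries held between 12058875 and 45428465 counted reads. Of these, 9 started from 1 ng of RNA and 10 PCR cycles. The other 2, replicate 2 of kainate glia and replicate 1 of sham glia, started from 0.05 ng and 15 cycles and are called low-input libraries here. The summed level of 8 neuronal marker genes was 3350 to 8356 CPM (read counts scaled to the size of each library and by its TMM factor, which evens out differences in composition, the unit of all levels below unless library size alone is named) in the neuronal libraries and 599 to 910 CPM in glia. The glia libraries differed widely among themselves: 6 oligodendrocyte markers summed to 38943 CPM in sham glia replicate 1 and 8752 CPM in sham glia replicate 3, and to between 4852 and 27163 CPM in kainate glia. The 2 sham glia libraries therefore stood far apart, also in their TMM factors of 0.762 and 1.68, and calls on the members in glia are given below with and without sham glia replicate 1.

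Microglia are the resident macrophages of the brain, and in the healthy tissue they carry a set of surface receptors with which they scan their surroundings. P2ry12 and P2ry13 encode receptors for ADP, Gpr34 a receptor for lysophosphatidylserine, Cx3cr1 the receptor for the neuronal chemokine fractalkine, and Csf1r the receptor for CSF1 and IL-34 on which microglial survival depends. Siglech encodes a sialic acid-binding lectin that signals through the adaptor Tyrobp, Selplg the P-selectin ligand PSGL-1, Tmem119 a membrane protein used to tell microglia from other macrophages, and Sall1 a zinc finger transcription factor of microglial identity. Several of these genes are known to be turned down when microglia become activated.

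The gene bodies of several members overlap other genes, which matters because the library kit does not record the strand of a transcript. In the GRCm38 annotation P2ry12 (chr3:59216272-59262871, minus strand) and P2ry13 (chr3:59207892-59210882, minus strand) both lie inside Med12l, which runs on the opposite strand and shares 9 exonic bases with P2ry12 and 0 with P2ry13. Gpr34 (chrX:13632089-13640858, plus strand) lies inside Cask, on the opposite strand, with 0 shared exonic bases. Csf1r shares 873 exonic bases, 15.1% of its exon length, with the opposite-strand gene Hmgxb3. Cx3cr1 overlaps 9 other genes, among them the transcription factor gene Csrnp1, but shares exonic sequence with Gm33858 alone, over 78 bases. Tmem119, Sall1, Siglech and Selplg overlap no annotated gene.

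RefSeq start sites were listed for 5 of the 9 members (P2ry12, P2ry13, Cx3cr1, Sall1 and Siglech). The 250 bases before the start are shown for the 3 of these that were called lower after kainate at the FDR threshold in the blocked comparison below, read 5′ to 3′ along the gene, in build GRCm38.p6. Capitals mark GAGGAA, the core recognised by the myeloid factor PU.1, searched on both strands.
P2ry12, chr3:59262986-59263235, minus strand: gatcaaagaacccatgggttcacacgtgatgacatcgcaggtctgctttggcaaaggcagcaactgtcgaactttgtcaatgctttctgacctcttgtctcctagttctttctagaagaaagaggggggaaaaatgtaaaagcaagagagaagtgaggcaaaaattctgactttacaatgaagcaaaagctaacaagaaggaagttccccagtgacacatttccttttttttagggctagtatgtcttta
P2ry13, chr3:59210883-59211132, minus strand: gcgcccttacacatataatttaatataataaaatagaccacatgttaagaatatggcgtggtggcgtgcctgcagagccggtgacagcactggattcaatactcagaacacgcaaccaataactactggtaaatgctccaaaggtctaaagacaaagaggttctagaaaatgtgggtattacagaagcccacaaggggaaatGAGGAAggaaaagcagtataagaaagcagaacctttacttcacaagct
Siglech, chr7:55767934-55768183, plus strand: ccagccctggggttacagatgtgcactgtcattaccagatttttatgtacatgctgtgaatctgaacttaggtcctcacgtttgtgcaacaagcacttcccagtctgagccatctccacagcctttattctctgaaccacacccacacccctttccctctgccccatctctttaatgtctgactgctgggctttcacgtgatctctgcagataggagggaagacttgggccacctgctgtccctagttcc

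The PU.1 core occurred once, 43 to 48 bases before the start of P2ry13, and in none of the windows of P2ry12, Siglech, Cx3cr1 or Sall1. Of all 32851 windows of the same length, 23.3% held it. The AP-1 site TGANTCA, also searched on both strands, was in none of the members' windows and in 6.75% of all windows.

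The members marked the NeuN- fraction throughout. Of the 40714 genes tested, 20.4% were lower in neurons than in glia at a false discovery rate (FDR) below 0.25, the threshold used in the study, and all 9 members were among them (edgeR quasi-likelihood test, Benjamini-Hochberg adjustment). Cx3cr1, which the study itself used to check its sort, was 48.5-fold lower in neurons than in glia (log2 fold change -5.60, SE 0.45, FDR 3.3e-05). Tmem119 was 46.6-fold lower, P2ry12 41.5-fold, Siglech 41.3-fold and Selplg 34.1-fold. The smallest differences were those of Csf1r at 26.7-fold, Gpr34 at 23.6-fold, P2ry13 at 18.4-fold and Sall1 at 17.6-fold. Summed over the 9 genes, the neuronal libraries held 36.2 to 58.7 CPM, against 488 to 3387 CPM in glia. In bulk nuclei, fewer microglia and less RNA per microglial nucleus cannot be told apart.

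**Figure D1:**
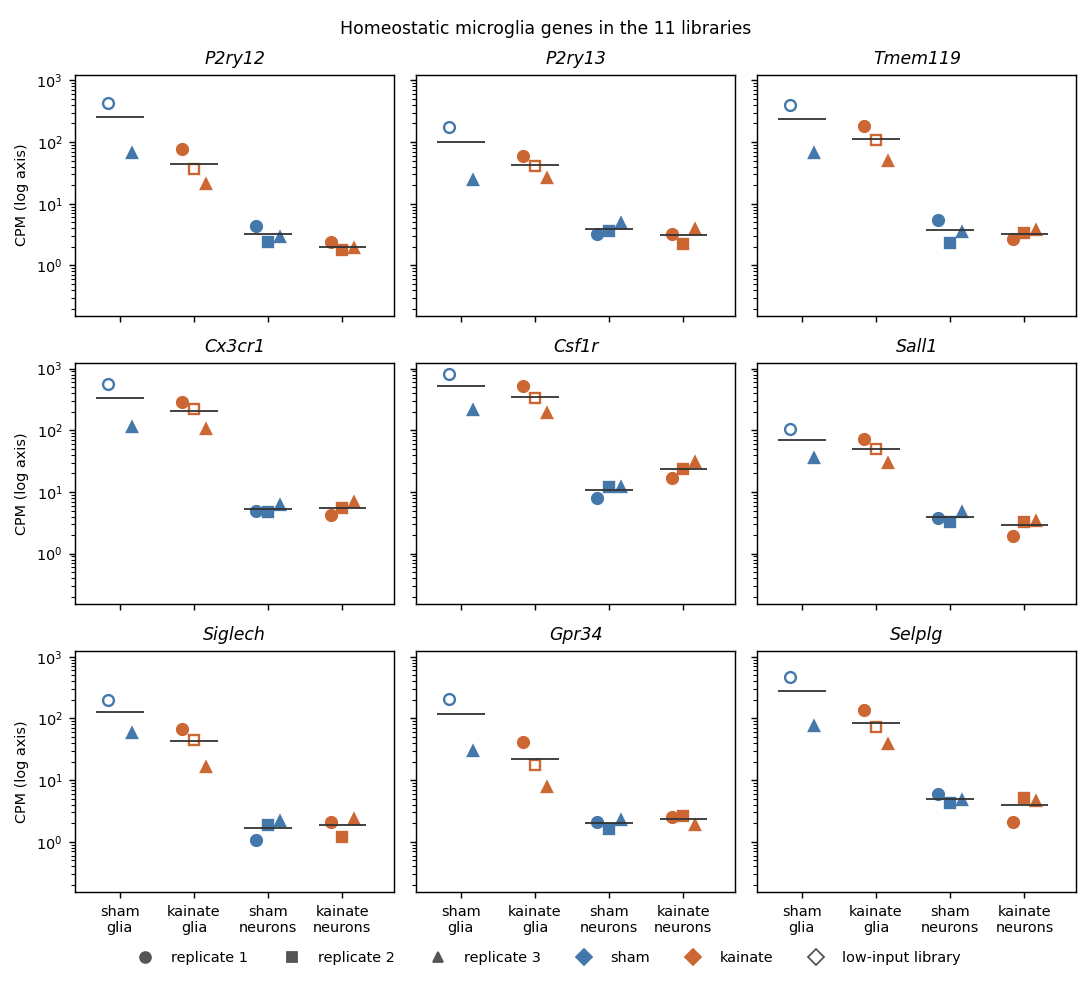
Level of each of the 9 genes in each of the 11 libraries, in CPM on a log axis, by group; symbols give the replicate number, open symbols the 2 low-input libraries, and horizontal lines the group means. In every panel the glia libraries lie above the neuronal ones, and sham glia replicate 1 is the highest library.

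Levels of different genes were compared per kilobase of exon. In sham glia (n = 2) the order of the means was Tmem119 (102 CPM per kb), P2ry12 (98.9), Csf1r (89.7), Cx3cr1 (75.1), Selplg (64.5), Gpr34 (56.2), P2ry13 (38.9), Siglech (37.9) and Sall1 (13.3). In kainate glia (n = 3) it was Csf1r (60.7 CPM per kb), Tmem119 (48.2), Cx3cr1 (45.3), Selplg (19.5), P2ry12 (17.4), P2ry13 (16.8), Siglech (12.7), Gpr34 (10.6) and Sall1 (9.53). P2ry12 thus stood at rank 2 in sham glia and rank 5 in kainate glia, and Gpr34 at ranks 6 and 8. The sham means were dominated by replicate 1. In sham glia replicate 3 alone P2ry12 stood at rank 3 (26.0 CPM per kb) and Gpr34 at rank 7 (14.2), while in the kainate libraries P2ry12 stood at rank 5 or 6 and Gpr34 at rank 7 or 9. Every neighbouring pair in both orders overlapped across its libraries, but some steps held within each library. Csf1r came first in each kainate glia library, and Sall1 came last in both sham glia libraries. Cx3cr1 had 63.2, 49.2 and 23.5 CPM per kb in kainate glia replicates 1, 2 and 3, against 32.4, 17.0 and 9.12 for Selplg. Other neighbours, such as Tmem119 and Cx3cr1 in kainate glia, changed places between libraries.

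In glia, each of the 9 genes had a lower fitted level after kainate than after sham, none passed the FDR threshold, and 0 of 9 had groups that did not overlap, as 3.52% of all genes tested did downward. This overlap depended on the scaling. By library size alone, without TMM factors, P2ry12, Gpr34, Siglech and Selplg were lower in every kainate library than in either sham library, 4 of 9 members against 5.1% of all genes tested, and the edgeR fit then called P2ry12 (log2 fold change -2.23, FDR 0.0605) and Gpr34 (-2.17, FDR 0.165) lower, 2 of 9 against 0.125%. P2ry12 came to 437 and 66.2 CPM in sham glia replicates 1 and 3, and to 76.1, 36.1 and 20.9 CPM in kainate glia replicates 1, 2 and 3. The highest kainate library lay just above the lower sham library, so that the groups overlapped on this scale. By library size alone the values were 333 and 111 CPM in sham glia and 65.7, 43.0 and 33.3 CPM in kainate glia, with no overlap. The fitted level was 5.68-fold lower after kainate (log2 fold change -2.51, SE 0.65, edgeR unadjusted p 0.00186, FDR 0.788), with a group mean of 252 ± 262 CPM (SD, n = 2) in sham and 44.3 ± 28.5 CPM (SD, n = 3) in kainate glia.

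Gpr34 followed the same layout, with 205 and 29.7 CPM in sham glia replicates 1 and 3. Kainate glia replicates 1, 2 and 3 had 41.2, 17.6 and 7.70 CPM. Here too 1 kainate library exceeded the lower sham library, which it did not by library size alone. Its level was 5.31-fold lower (log2 fold change -2.41, SE 0.69, edgeR unadjusted p 0.00384). The study, which tested fewer genes, called both P2ry12 and Gpr34 lower in glia of these samples at the same FDR threshold. The TMM-scaled edgeR fit above did not call them, and their direction is not independent evidence here.

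Selplg had 475 and 75.6 CPM in sham glia and 138, 72.8 and 38.9 CPM in kainate glia. Siglech had 198 and 58.0 CPM in sham glia and 66.5, 45.4 and 16.5 CPM in kainate glia. For both genes the lower sham library lay between the highest and the middle kainate library, and above all 3 by library size alone. Their log2 fold changes were -1.72 (SE 0.66, edgeR unadjusted p 0.0200) and -1.58 (SE 0.58, edgeR unadjusted p 0.0171). With P2ry12 and Gpr34, 4 of the 9 members had an edgeR unadjusted p under 0.05 and a lower level, against 0.695% of all genes tested.

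P2ry13, the second ADP receptor, had 172 and 24.3 CPM in sham glia and 59.3, 41.6 and 26.3 CPM in kainate glia, so that sham replicate 3 was below all 3 kainate libraries. Tmem119 had 405 and 67.6 CPM in sham glia and 179, 108 and 48.6 CPM in kainate glia. Cx3cr1 had 564 and 112 CPM in sham glia and 285, 222 and 106 CPM in kainate glia. For Tmem119 and Cx3cr1, kainate replicate 3 was below the lower sham library and the other kainate libraries lay between the sham libraries.

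Csf1r had 825 and 211 CPM in sham glia and 528, 329 and 194 CPM in kainate glia. Sall1 had 104 and 35.9 CPM in sham glia and 71.2, 49.6 and 29.7 CPM in kainate glia. The log2 fold changes of P2ry13, Tmem119, Cx3cr1, Csf1r and Sall1 were -1.21, -1.08, -0.73, -0.56 and -0.48, with standard errors of 0.48 to 0.64. Counting all members, 0 of 9 were called lower by edgeR at FDR below 0.25, where 0.00737% of all genes were. DESeq2 called 2 (P2ry12 at FDR 0.0275 and Gpr34 at FDR 0.0803), where it called 0.354% of the 17780 genes that it gave an FDR lower. The median log2 fold change of the 9 genes was -1.21, and that of all genes tested 0.02. For lists taken up below it was -1.03 for astrocyte, -1.04 for oligodendrocyte precursor and -0.79 for oligodendrocyte markers. It was -0.72 for other genes of homeostatic microglia, 0.08 for neuronal markers and 1.21 for genes of activated microglia. Negative medians were thus not particular to the members.

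These values turned on sham glia replicate 1, the low-input library with the highest level of every member. Without it, 0 of 9 were called by edgeR, 0 had an unadjusted p under 0.05 and 0.0% of all genes were called lower, while P2ry13, Tmem119, Cx3cr1, Csf1r, Sall1 and Selplg had positive log2 fold changes of 0.17 to 0.89. P2ry12 was then at -0.55, Gpr34 at -0.39 and Siglech at -0.41. By library size alone and without that library, P2ry12 was at -1.23, Gpr34 at -1.11, Siglech at -1.08 and Selplg at -0.50, with 0 of 9 called. Without sham glia replicate 3 instead, 7 of the 9 were called lower, where 1.06% of all genes were. In both cases sham glia is 1 library, in the latter the low-input one, and the test assumes that it varies like the other groups, which supply the spread.

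**Figure D2:**
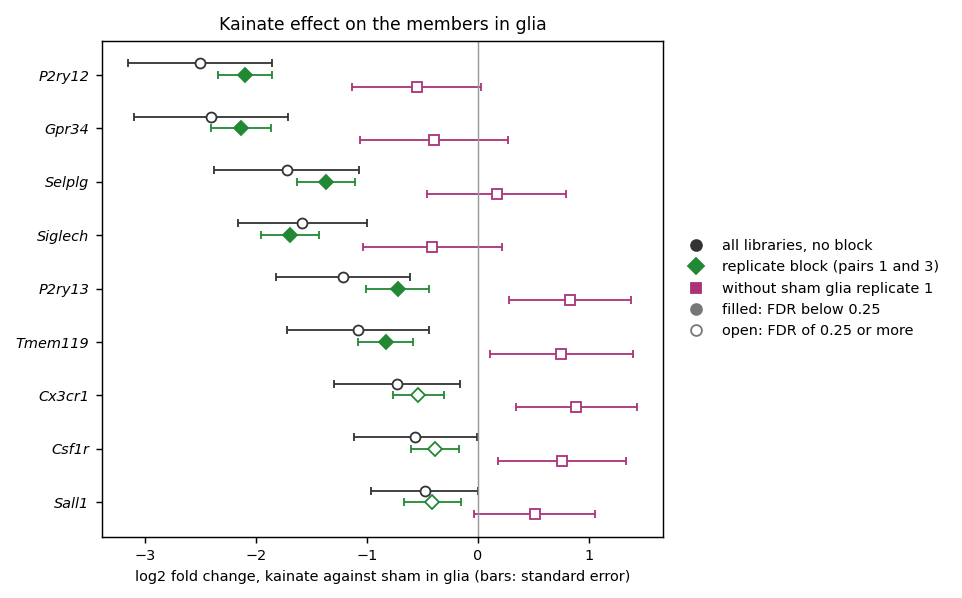
Log2 fold change of each member for kainate against sham in glia (x axis, bars are standard errors) under 3 fits: all libraries without a block, the replicate number as a block, and all libraries but sham glia replicate 1. Filled symbols have an FDR below 0.25; in the blocked fit 6 genes are filled, in the other 2 fits none.

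The replicate number was also fitted as a block, since deviations of same-numbered pools from their group means correlated positively in each pair, although some neuronal pools of different number did so as well, at up to 0.418. In glia this comparison rests on replicate 1 of both treatments and replicate 3 of both treatments, since sham replicate 2 is not among the libraries. Within replicate 1 the sham library was low-input (0.05 ng) and the kainate library was not (1 ng), so treatment and RNA input cannot be told apart there. Only the replicate 3 pair was matched for input. P2ry12 was 5.75-fold lower in kainate than in sham glia within replicate 1, and 3.18-fold lower within replicate 3. Gpr34 was 4.98-fold and 3.86-fold lower within the same pairs, Siglech 2.98-fold and 3.51-fold, and Selplg 3.44-fold and 1.94-fold. These 4 genes were lower in both pairs by at least 1.94-fold.

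Tmem119 was 2.27-fold lower within replicate 1 and 1.39-fold lower within replicate 3. Sall1 was lower by 1.46-fold and 1.21-fold, Csf1r by 1.56-fold and 1.09-fold, and Cx3cr1 by 1.98-fold and 1.06-fold. P2ry13 split, with a 2.91-fold lower level within replicate 1 and a kainate level 1.08-fold that of sham within replicate 3.

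In the blocked edgeR fit 6 of the 9 members were called lower and 0 higher, where 2.86% of all genes tested were called lower. They were P2ry12 (log2 fold change -2.10, SE 0.24, FDR 1.38e-08), Gpr34 (-2.14, SE 0.27, FDR 1.03e-07), Siglech (-1.69, SE 0.26, FDR 8.59e-06), Selplg (-1.37, SE 0.26, FDR 0.000346), Tmem119 (-0.83, SE 0.25, FDR 0.0537) and P2ry13 (-0.72, SE 0.29, FDR 0.249, at the edge of the threshold). Cx3cr1 at -0.54 (FDR 0.326), Csf1r at -0.38 (FDR 0.619) and Sall1 at -0.41 (FDR 0.700) did not pass. The median over the 9 genes was -0.83, and over all genes tested 0.11. The blocked fit had 3 residual degrees of freedom over all 11 libraries, and called 1163 genes lower in glia where the fit without the block called 3. Of these degrees of freedom 2 came from the neuronal pools, since kainate glia replicate 2 had no partner. The FDRs in glia therefore rest mainly on the spread of the neuronal pools. With the block and without sham glia replicate 1, the contrast in glia is the replicate 3 pair, 1 library against 1. The glia libraries then have 0 residual degrees of freedom and the 2 that remain come from the neuronal pools, so the values from this setting are given with no test in glia. P2ry12 was then at -1.66, Gpr34 at -1.94, Siglech at -1.81, Selplg at -0.95 and Tmem119 at -0.47. P2ry13 was at 0.11, and the median over the 9 genes was -0.47.

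Since the members differed several-fold between libraries of 1 group, they were also set against a list of 16 general microglia and macrophage genes, such as those of the complement C1q chains, Ctss and Laptm5. This list held 3051 and 534 CPM in sham glia replicates 1 and 3, and 2382, 1105 and 827 CPM in kainate glia replicates 1, 2 and 3. The 9 members summed to 3387 and 681 CPM in the sham libraries and to 1444, 922 and 488 CPM in the kainate libraries. The ratio of the members to the general list was 1.11 and 1.27 in sham glia, and 0.606, 0.834 and 0.590 in kainate glia. By this ratio, the 2 sham libraries lay close together and above every kainate library. No test was made of the ratio, since the genes were chosen with results of these libraries known.

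As single shares of the general list, 6 of the 9 members did not overlap between the groups, each lower after kainate, where 2.22% of all genes tested did the same. P2ry12 equalled 14.3% and 12.4% of the general list in sham glia, and 3.19%, 3.27% and 2.52% in kainate glia. Gpr34 equalled 6.73% and 5.56% in sham glia, and 1.73%, 1.60% and 0.931% in kainate glia. Selplg, Siglech, Tmem119 and P2ry13 were the others. The share of Csf1r was 27.0% and 39.5% in sham glia and 22.2% to 29.8% in kainate glia, and those of Cx3cr1 and Sall1 overlapped likewise. Without sham glia replicate 1 all 9 members were lower by this measure, but so were 80.7% of all genes tested.

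**Figure D3:**
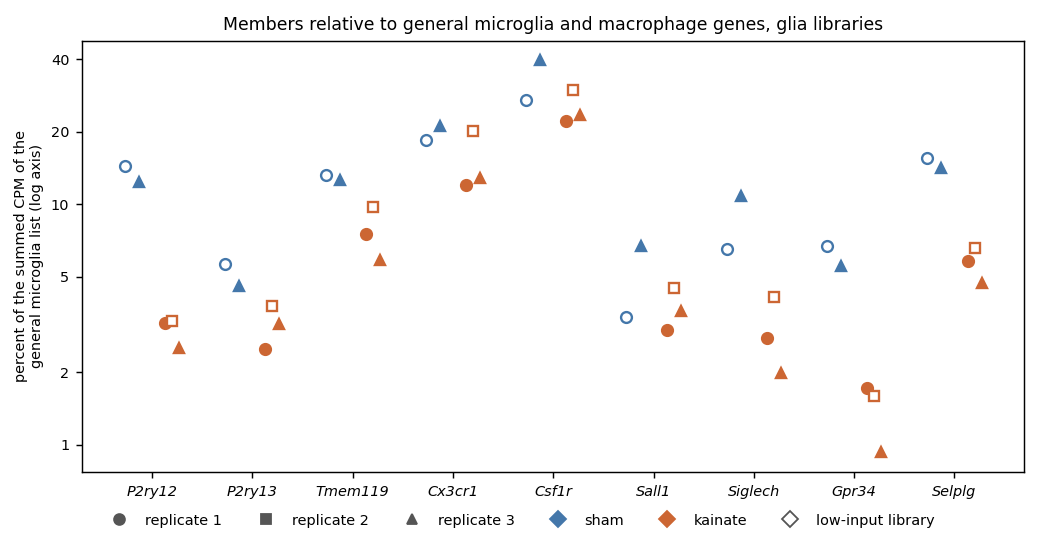
Level of each member in each glia library, as a percent of the summed CPM of 16 general microglia and macrophage genes in that library (log axis); symbols give the replicate number and open symbols the low-input libraries. Sham and kainate libraries are apart for P2ry12, P2ry13, Tmem119, Siglech, Gpr34 and Selplg, and overlap for Cx3cr1, Csf1r and Sall1.

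The general list itself showed no called gene in glia, with a median log2 fold change of -0.39 without the block and 0.19 with it. Its level against all genes was not steady, however, since without sham glia replicate 1 all 16 of its genes had positive log2 fold changes (median 1.51, 0 called by edgeR and 9 with an unadjusted p under 0.05). With the block as well, 14 of the 16 had positive values (median 0.69, no test). Of 12 other genes of homeostatic microglia, 0 were called without the block. With it, 4 were lower (Slc2a5, a fructose transporter, at -1.83, FDR 0.000191; Lpcat2, Crybb1 and Mertk) and Fcrls was higher at 0.72 (FDR 0.171). The study called Slc2a5 lower in glia of these samples. The median of the 12 genes was -0.50 with the block. The blocked values without sham glia replicate 1 (no test) were negative for 7 of the 12 and positive for 5, with a median of -0.16, Slc2a5 at -1.23 and Fcrls at 1.48.

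Among genes of activated microglia, most calls were in the opposite direction. Of 20 such genes 2 were called higher in glia without the block, where 0.0933% of all genes were, the chemokine Ccl2 (log2 fold change 3.08, SE 0.55, FDR 0.142) and the scavenger receptor Msr1 (3.45, SE 0.65, FDR 0.142). Msr1 had 1.92 and 3.52 CPM in sham glia and 35.4, 27.1 and 27.4 CPM in kainate glia, with no overlap. Without sham glia replicate 1, edgeR called 0 of the 20 when the block was left out, and 9 had an unadjusted p under 0.05, all higher. The study named Ccl2 and Msr1 from these samples, so their direction is not independent evidence. With the block 11 of the 20 were higher, where 2.93% of all genes were, among them Spp1, Tnf, Ccl3, Ccl4 and Cd14, and Apoe was lower at -1.17 (FDR 0.00046). When sham glia replicate 1 was left out, the blocked values (no test) were positive for 13 of the 20, with Ccl2 at 2.66 and Msr1 at 2.96, and Apoe was at -1.57. The ratio of the 9 members to the activated list was 0.717 to 0.738 in sham glia and 0.346 to 0.697 in kainate glia. Most of the sum of that list came from Apoe and Cd9. Their means were 2134 and 513 CPM in sham glia, of 2824 CPM for the list, and 955 and 757 of 2125 CPM in kainate glia. The ratio therefore says little about the other genes of the list.

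Markers of other glial cells also moved between the groups. With the block, 4 of 6 astrocyte markers, 4 of 6 oligodendrocyte markers and 4 of 4 oligodendrocyte precursor markers were lower after kainate in glia, and 0 of each were called without it. Blocked values without sham glia replicate 1 (no test) were negative for 5 of 6, 6 of 6 and 4 of 4 of them. Gpr17, a receptor of oligodendrocyte precursors, was at -2.30 (FDR 5.55e-10). As a share of the general microglia list, 4 of 6 astrocyte, 3 of 6 oligodendrocyte and 3 of 4 precursor markers were lower in kainate glia without overlap. Set against the oligodendrocyte list, the members' sum gave ratios of 0.0778 and 0.0870 in sham glia and of 0.0532 to 0.101 in kainate glia, which overlapped. Against the astrocyte list the ratios were 0.624 to 0.801 in sham glia and 0.569 to 1.303 in kainate glia, and against the precursor list 0.968 to 1.51 and 1.35 to 2.06. Relative to these 3 lists the groups were not apart, and the part of the cell mixture in these values was not tested.

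Markers of other myeloid and vascular cells had lower sums in glia than the members. Markers of border macrophages summed to 26.7 and 27.0 CPM in sham glia and 22.2 to 26.6 CPM in kainate glia, with 0 of 6 called in either fit. Markers of blood monocytes and neutrophils summed to 7.80 and 16.4 CPM in sham glia and 5.97 to 12.3 CPM in kainate glia, with 0 of 5 tested called. Endothelial markers summed to 17.3 and 33.3 CPM in sham glia and 19.0 to 31.4 CPM in kainate glia. Pericyte markers summed to 149 and 64.0 CPM in sham glia and 38.9 to 112 CPM in kainate glia, with 0 of 5 called without the block and 1 lower with it.

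**Figure D4:**
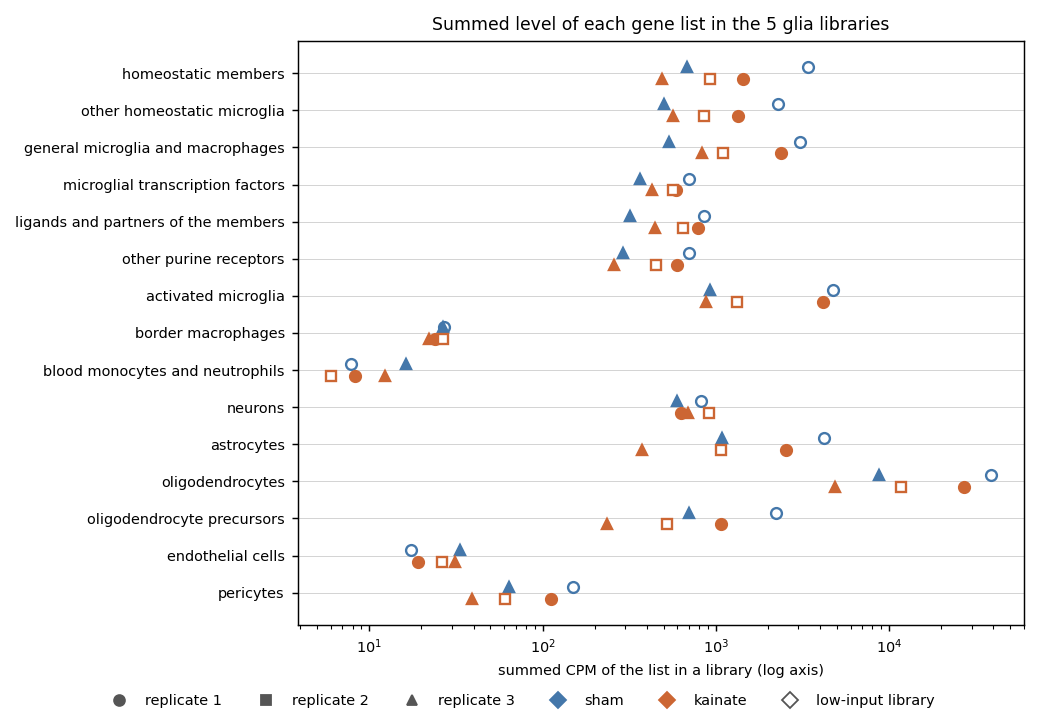
Summed level of the 9 members and of 14 other gene lists in each of the 5 glia libraries, in CPM on a log axis; symbols give the replicate number and open symbols the low-input libraries. Sham glia replicate 1 is highest for the microglial, astrocyte, oligodendrocyte, precursor and pericyte lists.

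Some of the genes that overlap members were looked at, since their reads could enter the members' counts. The overlapping genes not described here share no exonic bases with a member. Med12l, around P2ry12 and P2ry13, had a blocked log2 fold change of -0.26 (FDR 0.872) and levels of 77.6 and 53.3 CPM in sham glia and 47.0 to 60.9 CPM in kainate glia. Cask, around Gpr34, was at -0.46 (FDR 0.463). Hmgxb3, which shares exonic bases with Csf1r, was at 0.24 (FDR 0.908). Csrnp1, inside the span of Cx3cr1, was higher, with a blocked log2 fold change of 2.66 (FDR 7.08e-11), while Cx3cr1 was not called. Gm33858, which shares exonic bases with Cx3cr1, had 31.1 and 9.82 CPM in sham glia and 9.92 to 13.99 CPM in kainate glia, and a blocked log2 fold change of -0.57 (FDR 0.711).

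In neurons, the members had low levels, between 1.07 and 30.2 CPM, on 16 to 940 reads per library. Without the block 0 of 9 were called by edgeR in either direction, where 0.165% of all genes were. DESeq2 called 0, against 1.66% of the 21722 genes that it gave an FDR. An edgeR unadjusted p under 0.05 with a higher level was found for 1 member and for 1.46% of all genes. The median log2 fold change of the 9 genes was -0.19, and that of all genes tested -0.01.

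That member was Csf1r. It had 7.99, 12.15 and 12.02 CPM in sham neurons and 16.6, 24.0 and 30.2 CPM in kainate neurons, with every kainate library above every sham library. Its level was 2.20-fold that of sham (log2 fold change 1.14, SE 0.51, edgeR unadjusted p 0.0429), and the blocked fit called it higher (1.12, SE 0.19, FDR 3.36e-05). Such a separation upward was seen in 4.26% of all genes tested. By library size alone the groups of Csf1r overlapped, at 5.59 to 12.2 CPM in sham and 12.1 to 32.3 CPM in kainate neurons, and 0 of 9 members were apart upward, against 4.49% of all genes. Hmgxb3, on the other strand, had 59.7 to 72.0 CPM in sham neurons and 79.1 to 82.7 CPM in kainate neurons, a blocked log2 fold change of 0.31 (FDR 0.730). How far reads of Hmgxb3 entered the count of Csf1r was not tested.

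P2ry12 had 4.36, 2.44 and 2.90 CPM in sham neurons and 2.42, 1.76 and 1.89 CPM in kainate neurons. The groups were just apart, as 3.6% of all genes were in that direction, and were apart by library size alone too, as were 4.08% of all genes. The blocked fit called it lower (log2 fold change -0.63, SE 0.24, FDR 0.216), a call lost without sham glia replicate 1 (edgeR FDR 0.34), while without the block the value was -0.67 (SE 0.62). In the blocked fit 1 of 9 members was thus higher, against 3.19% of all genes, and 1 lower, against 1.9%.

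The remaining 7 members overlapped between sham and kainate neurons. Cx3cr1 had 4.77 to 6.22 CPM in sham and 4.27 to 6.80 CPM in kainate neurons, with a log2 fold change of 0.06 (SE 0.52). P2ry13, Tmem119, Sall1 and Selplg had log2 fold changes of -0.33, -0.19, -0.43 and -0.32. Siglech was at 0.10 and Gpr34 at 0.22. The ratio of the members to the general list was 0.655 to 0.781 in sham neurons and 0.533 to 0.751 in kainate neurons, which overlapped. As single shares of that list, P2ry12, P2ry13, Cx3cr1 and Sall1 were lower in kainate neurons without overlap, 4 of 9 against 11.9% of all genes tested, and Csf1r was higher, 1 of 9 against 1.37%.

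Per kilobase of exon, Csf1r was first in both neuronal groups, with 1.86 CPM per kb in sham and 4.09 CPM per kb in kainate neurons, and in kainate neurons its libraries all lay above those of Tmem119, the next gene. All other neighbours overlapped in both groups, down to Siglech in sham neurons with 0.503 CPM per kb and Sall1 in kainate neurons with 0.545 CPM per kb. The general microglia list summed to 53.9 to 55.6 CPM in sham neurons and 65.4 to 85.0 CPM in kainate neurons. With the block 4 of its 16 genes were higher in kainate neurons, among them C1qb at 0.80 (FDR 0.0425) and Cd68 at 0.88 (FDR 0.0176). The part of microglial nuclei in the NeuN+ gate was not tested.

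The kainate effect was compared directly between neurons and glia. Without the block 0 of 9 members were called by edgeR and 0 by DESeq2. A higher effect in neurons was called by edgeR for 0.00246% of all genes, and by DESeq2 for 0.118% of the 17780 genes that it gave an FDR. Gpr34 and Csf1r had an edgeR unadjusted p under 0.05 in that direction, 2 of 9 members against 0.447% of all genes. For Gpr34 the effect in neurons exceeded that in glia by 2.63 on the log2 scale (SE 0.95, edgeR unadjusted p 0.0157). With the block 5 of 9 were called, each with a higher effect in neurons than in glia, where 1.23% of all genes were. They were Gpr34 (difference 2.37, SE 0.37, FDR 5.33e-05), Siglech (1.72, SE 0.37, FDR 0.00677), Csf1r (1.51, SE 0.29, FDR 0.0015), P2ry12 (1.47, SE 0.34, FDR 0.0134) and Selplg (1.06, SE 0.35, FDR 0.229). Without sham glia replicate 1 the unblocked difference turned to -0.12 for P2ry12 and -0.49 for Selplg, and was also negative for P2ry13, Tmem119, Cx3cr1 and Sall1. The blocked differences without that library, for which the effect in glia has no test, were 2.17 for Gpr34, 1.85 for Siglech, 1.25 for Csf1r, 1.03 for P2ry12 and 0.63 for Selplg. For Sall1 the difference was 0.05 (SE 0.67) without the block and -0.0060 (SE 0.32) with it.

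Among 11 genes for ligands and partners of the members, 0 were called in glia without the block. With it 3 were called. Csf1, a ligand of Csf1r, was higher (log2 fold change 1.15, FDR 0.00216), and the ectonucleotidases Entpd1 (-0.86, FDR 0.101) and Entpd2 (-2.01, FDR 3.36e-05), which break down extracellular nucleotides, were lower. Their blocked values without sham glia replicate 1 were 1.27, -0.70 and -2.23, with no test. Csf1 had 170 and 66.6 CPM in sham glia and 348, 237 and 161 CPM in kainate glia. Il34, the other ligand of Csf1r, was at -0.30 (FDR 0.921). Cx3cl1, which encodes fractalkine, was mainly a transcript of neurons, with 572 to 1443 CPM in sham neurons and 689 to 1686 CPM in kainate neurons, and was at 0.37 in glia (FDR 0.654). In neurons the blocked fit called 3 of the 11 higher, Csf1 at 0.78 (FDR 0.0197), Tgfb1 at 0.89 (FDR 0.0927) and Tgfbr2 at 1.51 (FDR 2.07e-06).

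The 10 genes whose levels over the 11 libraries were most like the mean standardised pattern of the members were Anln, Lima1, Mal, Sox2ot, Tcn2, Selenop, Tmem98, Cdk19, Vsir and Itgb5, of 24713 genes compared. Their Pearson correlations with it were 0.994 to 0.998 over 11 libraries, which describe mostly the step between neurons and glia and the spread of the glia libraries. All 10 had negative blocked log2 fold changes in glia, of -0.57 for Lima1 to -1.19 for Selenop.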

How the data were processed

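mRNA was measured in 11 libraries of sorted nuclei. The deposited table holds raw counts per gene: the authors trimmed reads with Trim Galore 0.4.3, aligned them with Rsubread and counted uniquely mapped reads with featureCounts on GENCODE annotation of mm10. Counts were used as deposited. The kit does not mark strand. One protocol label names right hippocampi, while titles, design text and methods give left ones. The 11 bisulfite samples were not used. Genes were named by Ensembl identifier through GENCODE annotation of the same build, and 105 of 53379 rows without a symbol were left out.

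In edgeR 4.0.16 (R 4.3.3), genes kept by filterByExpr (minimum count 10, minimum total 15) were scaled by TMM and fitted over all 11 libraries with 1 mean per treatment and fraction, and tested by quasi-likelihood F-tests. FDR is Benjamini-Hochberg over 40714 genes, called below 0.25 as in the study. CPM are TMM-scaled. Fold changes come from the fits, and within-pair folds from CPM. Scripts were tested on simulated data. Replicates are separate pools, and depth (12058875 to 45428465 reads) and only 2 sham glia libraries limit precision.

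Replicate numbers come from the labels and do not mark shared mice between treatments. The study describes pools of unequal numbers of mice and sequencing on different instruments, without assigning these to replicates in its methods. Their part in the likeness of pools and in the spread of the libraries was not tested. Deviations from group means of same-numbered pools correlated at 0.643, 0.161 and 0.491 in neurons and 0.760 and 0.787 in glia, so the numbers were treated as pairs. Some pools of different number correlated too, in neurons kainate 3 with sham 2 at 0.418 and kainate 2 with sham 3 at 0.166, and in glia kainate 2 with sham 3 at 0.210. The 2 glia values are not separate checks, because the deviations of 2 sham libraries mirror each other. No 2 libraries of a group agreed within counting noise. Alternatives were DESeq2 1.42.0, other scaling, filters and thresholds, separate fits, the block, and leaving out libraries.

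The 9 members, 14 other lists and tests were chosen with earlier results of these data known. Named were all members, list genes called in either fraction without the block, and the 10 most alike (mean CPM of at least 1, log2 of CPM plus 0.5). Some list genes abundant in glia and some genes overlapping members were named as well. Some list genes were also named from the blocked fit, or as examples after their values were seen. The share of the general list by gene, the other denominators, scaling by library size alone, and the blocked fit without sham glia replicate 1 were added after seeing the data. The values of 1 list gene are not reported here.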

Additional observations from a re-analysis of the deposited data

How the results depend on the processing

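The call of all 9 members as lower in neurons than in glia was the same under the 21 alternatives run (other size factors, library sizes alone, filters, FDR below 0.05, edgeR's newer method, DESeq2, without both low-input libraries, the pool as a block, and each library left out). In glia, 0 members were called for kainate against sham, 6 with the replicate block, 2 with DESeq2's Wald test, 2 by library sizes alone, 3 with the replicate block and without sham glia replicate 1, and 0 to 7 on leaving out single libraries, 7 without sham glia replicate 3. In neurons the replicate block called 2 and, without sham glia replicate 1, 1. For the difference between neurons and glia it called 5. In both, the other alternatives that kept both sham glia libraries called 0. In glia the direction turned in 17 of 207 single-gene values, all without sham glia replicate 1 or without both low-input libraries: without the former, P2ry13 was at 0.83, Tmem119 at 0.75, Cx3cr1 at 0.89, Csf1r at 0.76, Sall1 at 0.51 and Selplg at 0.17, and without both at 0.84, 0.78, 0.82, 0.80, 0.52 and 0.26. Without the former and by library sizes alone, P2ry13 was at 0.22, Tmem119 at 0.086, Cx3cr1 at 0.27 and Csf1r at 0.13, and with the block P2ry13 was at 0.11. In neurons small values changed sign in 6 of 207 cases: Tmem119 reached 0.17, Cx3cr1 -0.01 and -0.12, and Siglech -0.12 and -0.11 on leaving out single libraries, and Siglech -0.017 with edgeR's newer method. For the difference, 24 of 198 turned: without sham glia replicate 1, P2ry12 was at -0.12, P2ry13 at -1.16, Tmem119 at -0.94, Cx3cr1 at -0.83, Sall1 at -0.94 and Selplg at -0.49, without both low-input libraries at -0.25, -1.17, -0.96, -0.76, -0.95 and -0.58, and Sall1 was at -0.07, -0.07, -0.08 and -0.16 without 4 other libraries, at -0.0060 with the block and at -0.12 by library sizes alone. Without sham glia replicate 1 and by library sizes alone, P2ry13 was at -0.60, Tmem119 at -0.21, Cx3cr1 at -0.21 and Sall1 at -0.33, and with the block P2ry13 was at -0.47 and Sall1 at -0.15. On leaving out single libraries, those members spanned in glia -2.03 to 0.83 (P2ry13), -1.86 to 0.75 (Tmem119), -1.47 to 0.89 (Cx3cr1), -1.24 to 0.76 (Csf1r), -1.06 to 0.51 (Sall1) and -2.52 to 0.17 (Selplg), in neurons -0.45 to 0.17 (Tmem119), -0.12 to 0.21 (Cx3cr1) and -0.12 to 0.36 (Siglech), and in the difference -0.12 to 2.64 (P2ry12), -1.16 to 1.70 (P2ry13), -0.94 to 1.68 (Tmem119), -0.83 to 1.53 (Cx3cr1), -0.94 to 0.63 (Sall1) and -0.49 to 2.20 (Selplg). The replicate block within each fraction could not be fitted for neurons against glia, since its blocks are nested in the fractions. Without either sham glia library that group is 1 library, assumed to vary like the other groups, which supply the spread. With the block as well the glia libraries have 0 residual degrees of freedom, and such a fit is no test in glia. Calls in glia or in the difference from fits with 1 sham glia library are therefore not listed here. With 2 sham glia libraries, 1 of low input, an effect in glia rests on few pools, and the cause of these changes was not tested.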

Other observations

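Beyond the members, transcription factors of microglia were examined in glia. Of 10 such genes, 0 were called without the block. With it Maf was lower (log2 fold change -1.11, FDR 0.0238; 56.1 and 19.98 CPM in sham glia, 12.95 to 18.6 CPM in kainate glia) and Runx1 was higher (0.79, FDR 0.182). Their blocked values without sham glia replicate 1, with no test since sham glia is then 1 library, were -0.62 and 1.002. The study called Maf lower in glia of these samples. Spi1, which encodes PU.1, was at 0.13 (FDR 0.998) and Irf8 at 0.16 (FDR 0.990).

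Of 9 other purine receptors, 0 were called in glia without the block and 1 with it: P2ry2, a receptor for ATP and UTP, was higher at 2.12 (FDR 0.0027). Its blocked value without sham glia replicate 1 was 1.08, with no test. The UDP receptor gene P2ry6 had 48.8 and 14.4 CPM in sham glia and 65.2, 34.0 and 27.7 CPM in kainate glia (blocked log2 fold change 0.68, FDR 0.303). Adora1, the most abundant of these receptors in glia, was at -0.31 (FDR 0.796).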
